A study of Mus musculus with 8 samples.

Results

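The genes described here are the ligands, receptors, antagonists and nuclear effectors of the Wnt pathway, 50 of the 15880 genes in the expression table. They were chosen by a rule on gene symbols, with earlier results of these data known. The rule takes every Wnt ligand (*Wnt*), every Frizzled receptor (*Fzd*), and the receptors *Lrp5*, *Lrp6*, *Ror1*, *Ror2* and *Ryk*. It takes the antagonists *Sfrp1*, *Sfrp2*, *Sfrp4*, *Sfrp5*, *Dkk1* to *Dkk4*, *Wif1*, *Sost*, *Sostdc1* and *Notum*. *Frzb*, another gene of the Sfrp family, does not match the rule and was listed with the extracellular modulators outside it. The rule also takes the R-spondins (*Rspo*), their receptors *Lgr4* to *Lgr6*, and the ligases *Znrf3* and *Rnf43*. The last are *Ctnnb1*, *Axin1*, *Axin2*, *Tcf7*, *Tcf7l1*, *Tcf7l2* and *Lef1*. The rule fits 62 annotated mouse symbols. Of these, 12 (*Wnt1*, *Wnt3*, *Wnt3a*, *Wnt6*, *Wnt7a*, *Wnt7b*, *Wnt8a*, *Wnt8b*, *Wnt9b*, *Wnt10a*, *Fzd10* and *Dkk4*) are not among the 15880 genes and could not be analysed.

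Wnt proteins are secreted signals that bind Frizzled receptors, and with the co-receptors Lrp5 or Lrp6 they keep β-catenin (*Ctnnb1*) from being degraded by the Axin complex, so that it acts in the nucleus with TCF/LEF factors. Secreted antagonists hold back the ligand or the co-receptor, whereas R-spondins, bound by Lgr receptors, relieve the removal of Frizzled proteins by the ligases Znrf3 and Rnf43. In the skeleton, β-catenin signalling is needed for osteoblasts to form, and *Lrp5*, *Sost* and *Dkk1* are known for their effects on bone mass.

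The study sequenced RNA from bone marrow stromal cells of newborn mice, sorted by a nestin reporter and by surface Pdgfrα. Its stated aim was to study possible functional differences among cells with the reporter, only some of which expressed Pdgfrα. The animals were *Nes-Gfp* heterozygous pups on a C57BL/6 background at postnatal day 1, in which regulatory elements of nestin drive GFP, so GFP marks activity of those elements and no single cell type. Crushed bones were digested with collagenase, cells negative for CD45, CD31 and Ter119 were sorted by GFP and Pdgfrα, and the RNA of 15000 to 80000 cells per library, pooled from 3 pups, was amplified to cDNA. The 4 populations, with 2 libraries each, are named here double-positive (GFP+ Pdgfrα+), Pdgfrα-only (GFP- Pdgfrα+), GFP-only (GFP+ Pdgfrα-) and double-negative (GFP- Pdgfrα-).

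Each value is a normalized signal, the reads of a gene plus 0.5, divided by the effective library size and multiplied by 1000000. The effective size is the sum of reads on genes, scaled by a normalization factor for each library. The libraries held 3221217 to 5302762 reads, and 3 reads correspond to a value between 0.825 and 1.04. Values were compared on the log2(value + 1) scale, which understates changes of genes with low values, with limma fitted to all genes and all 8 libraries. A gene was called at a Benjamini-Hochberg adjusted p of at most 0.05 over the 15880 genes, and log2 fold changes are given ± their standard error. With 2 libraries against 2 the smallest exact permutation p is 0.333, so the p-values rest on a spread shared across genes and populations. Fold values are ratios of the reads of both libraries of a population, corrected for effective library size. Against a population with 0 reads, a fold is a lower bound set by 3 reads over the population, and with 1 to 3 reads it has a 95% counting interval, which covers counting error only. The comparisons share libraries and are not independent of each other. In sorted bulk samples, fewer cells that express a gene and less of its RNA per cell cannot be told apart.

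The markers used for sorting followed the gates. *Pdgfra* stood at 733 and 755 in the double-positive and 839 and 794 in the Pdgfrα-only libraries, against 18.1 and 10.4 in the GFP-only and 3.303 and 4.36 in the double-negative libraries. *Nes*, the endogenous nestin gene, was at 57.6 and 72.01 in double-positive, 149 and 176 in GFP-only, 27.4 and 47.1 in Pdgfrα-only and 3.59 and 9.08 in double-negative cells. Pdgfrα-only cells, sorted as GFP-negative, thus held a *Nes* level between that of the double-negative and the double-positive cells. *Ptprc*, which encodes CD45, reached 11.4 and 6.72 in the double-negative libraries and at most 1.58 in the 6 others. *Pecam1*, which encodes CD31, was at 12.8 and 27.9 in the double-negative libraries and between 3.91 and 18.1 in the others. Its RNA was thus present in every library, and the cells it came from were not tested.

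Wnt genes took up a larger share of the reads in the Pdgfrα+ populations than in the double-negative cells. The 50 genes held 0.339% and 0.327% of the reads in double-positive, 0.344% and 0.327% in Pdgfrα-only, 0.185% and 0.199% in GFP-only, and 0.0524% and 0.0452% in double-negative libraries. The highest population mean was in Pdgfrα-only cells for 25 of the 50 genes, in double-positive cells for 16, in GFP-only cells for 7 and in double-negative cells for 2, against 24.0%, 19.4%, 21.0% and 35.6% of all genes in that order. The lowest mean was in double-negative cells for 37 of them, as it was for 45.3% of all genes. Over the 4 populations, 44 of the 50 genes (88.0%) were called by limma's moderated F test, against 66.0% of all genes. The 6 that were not called were *Wnt16*, *Fzd9*, *Sfrp5*, *Sost*, *Znrf3* and *Axin1*. A filter that asked for a value over 2 in at least 2 libraries was passed by 47 of the 50 genes and by 90.3% of all genes.

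Among the ligands, *Wnt5a*, which signals mainly without β-catenin, had the highest level per kilobase of exon in both Pdgfrα+ populations. Its values were 89.1 and 86.96 in double-positive, 129.7 and 107 in Pdgfrα-only, 9.83 and 13.8 in GFP-only and 2.73 and 2.71 in double-negative cells. *Wnt9a*, a ligand known from joint formation, stood at 26.1 and 30.3 in double-positive, 48.3 and 42.9 in Pdgfrα-only, 11.5 and 4.502 in GFP-only and 1.87 and 0.825 in double-negative cells. For both genes the Pdgfrα-only libraries were highest, the double-negative libraries were lowest, and no populations overlapped. *Wnt2b*, a ligand of the β-catenin branch, read 17.5 and 27.5 in double-positive, 18.3 and 19.2 in Pdgfrα-only, 7.65 and 7.85 in GFP-only and 2.15 and 4.36 in double-negative cells, and only the Pdgfrα+ populations overlapped. *Wnt4* varied within Pdgfrα-only cells, at 14.3 and 5.198, and lay at 9.25 and 7.33 in double-positive, 5.95 and 5.27 in GFP-only and 2.73 and 2.24 in double-negative cells. *Wnt10b*, known for favouring bone over fat, was highest in Pdgfrα-only cells at 6.93 and 6.39, against 4.28 and 2.16, 0.607 and 1.42, and 0.431 and 1.06 in double-positive, GFP-only and double-negative cells. *Wnt11*, a ligand of the branch without β-catenin, had 7.44 and 7.57 in Pdgfrα-only cells and 1.795 and 2.73 in double-positive cells, and at most 1.01 in the 4 Pdgfrα- libraries. The remaining ligands, *Wnt2*, *Wnt5b* and *Wnt16*, stayed between 0.118 and 4.74 in every library.

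*Fzd4*, a receptor known from vessel growth, had the largest level per kilobase of the Frizzled genes in all populations but the double-negative. It stood at 113 and 156 in double-positive, 127 and 156 in Pdgfrα-only, 144 and 169 in GFP-only and 3.88 and 10.5 in double-negative cells. *Fzd1* was at 86.6 and 85.8, 95.2 and 84.5, 44.3 and 58.8 and 5.89 and 3.89 in the same order of populations. *Fzd2* read 83.8 and 78.3, 89.9 and 76.5, 18.1 and 16.3 and 0.718 and 1.06 in that order. All 3 receptors overlapped between the Pdgfrα+ populations and were low in double-negative cells, but GFP-only cells kept the *Fzd4* level of the Pdgfrα+ cells and had lower values of *Fzd1* and *Fzd2*. *Fzd7* had the largest level per kilobase of the Frizzled genes in double-negative cells, with values of 38.1 and 28.2 there, against 74.2 and 84.1 in double-positive, 126 and 113 in Pdgfrα-only and 61.6 and 62.4 in GFP-only cells. *Fzd5* stood at 67.8 and 45.3 in double-positive and 52.8 and 38.5 in Pdgfrα-only cells, and at 12.3 and 13.5 in GFP-only and 13.1 and 9.08 in double-negative cells, so that both Pdgfrα+ populations lay above both Pdgfrα- populations. *Fzd8* followed the Pdgfrα+ cells too, with 24.4 and 32.6, 39.96 and 34.6, 11.5 and 17.1 and 1.01 and 1.297 in double-positive, Pdgfrα-only, GFP-only and double-negative cells.

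*Fzd3* and *Fzd6*, receptors with roles in planar cell polarity, had different orders of populations. *Fzd3* was highest in the GFP+ populations, at 25.6 and 21.7 in GFP-only and 15.6 and 16.5 in double-positive cells, against 3.66 and 7.28 in Pdgfrα-only and 1.01 and 2.004 in double-negative cells. *Fzd6* was highest in Pdgfrα-only cells at 13.5 and 18.9, and lay at 4.28 and 2.73 in double-positive, 0.607 and 2.19 in GFP-only and 4.45 and 3.89 in double-negative cells. *Fzd9* did not exceed 2.23 in any library.

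The co-receptor *Lrp6* was found in all 4 populations, at 383 and 426 in double-positive, 458 and 424 in Pdgfrα-only, 240 and 267 in GFP-only and 127 and 109.5 in double-negative cells. *Lrp5* stood at 129 and 103, 120.1 and 120.4, 77.6 and 90.7 and 12.5 and 10.7 in the same order. The 2 co-receptors shared their order, with overlapping Pdgfrα+ populations above GFP-only cells and double-negative cells lowest. *Ror1*, a tyrosine kinase receptor for Wnt5a, was instead highest in GFP-only cells at 56.2 and 61.6, followed by 44.8 and 52.7 in Pdgfrα-only, 32.5 and 32.3 in double-positive and 1.01 and 1.77 in double-negative cells. Its relative *Ror2* was low in GFP-only cells at 4.01 and 6.303, and read 22.5 and 22.9 in double-positive, 23.1 and 28.1 in Pdgfrα-only and 0.431 and 2.004 in double-negative cells. *Ryk*, a receptor without an active kinase, varied least of the 5, at 65.6 and 70.0, 71.98 and 52.7, 54.02 and 54.9 and 43.8 and 31.01 in double-positive, Pdgfrα-only, GFP-only and double-negative cells.

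Of the secreted antagonists, *Sfrp1*, which binds Wnt proteins outside the cell, was at 345 and 381 in double-positive and 357 and 412 in Pdgfrα-only cells, at 38.0 and 31.0 in GFP-only and at 1.58 and 1.297 in double-negative cells. The Pdgfrα+ populations overlapped for it and stood far above the others. *Dkk3*, the divergent member of the Dickkopf family, was at 349 and 303 in Pdgfrα-only, 162 and 130.1 in double-positive, 14.7 and 17.1 in GFP-only and 3.88 and 9.08 in double-negative cells. *Sfrp2* was highest in Pdgfrα-only cells, where its libraries were far apart at 135 and 55.4, and it had 25.6 and 17.97 in double-positive, 11.3 and 19.7 in GFP-only and 1.29 and 0.354 in double-negative cells. *Dkk2*, a Dickkopf antagonist that binds Lrp co-receptors, was at 80.8 and 55.98 in Pdgfrα-only, 21.1 and 20.3 in double-positive, 0.364 and 0.643 in GFP-only and 3.59 and 2.95 in double-negative cells. These 3 genes had no overlap between the Pdgfrα+ populations, with Pdgfrα-only cells higher. *Sfrp4* had its highest values in the Pdgfrα+ populations as well, 45.5 and 39.95 in Pdgfrα-only and 32.7 and 30.04 in double-positive cells, and read 2.06 and 3.99 in GFP-only and 4.17 and 5.78 in double-negative cells.

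The antagonists *Wif1*, *Notum* and *Dkk1* were highest in double-positive cells. *Wif1* (ENSMUSG00000020218, chromosome 10, 120471016 to 120537706, plus strand, build NCBIM37), whose product binds Wnt ligands, stood at 110.3 and 73.2 there, at 25.3 and 19.2 in Pdgfrα-only, 10.1 and 11.2 in GFP-only and 1.01 and 1.53 in double-negative cells. *Notum* (ENSMUSG00000042988, chromosome 11, 120515102 to 120522489, minus strand), an enzyme that removes the lipid of Wnt proteins, was at 11.2 and 7.91 in double-positive, 0.882 and 1.04 in Pdgfrα-only, 0.8498 and 2.19 in GFP-only and 0.144 and 0.118 in double-negative cells. *Dkk1* (ENSMUSG00000024868, chromosome 19, 30620353 to 30624155, minus strand), which blocks Lrp5 and Lrp6, read 8.98 and 6.47, 1.14 and 0.446, 2.55 and 1.93 and 0.144 and 0.118 in the same order. For each of these genes both double-positive libraries lay above all others, and *Notum* and *Dkk1* had 0 reads in the double-negative libraries. *Sostdc1*, an antagonist of Wnt and bone morphogenetic proteins, had its highest values in GFP-only cells, at 34.6 and 33.1, against 5.11 and 8.77 in double-positive, 9.96 and 6.68 in Pdgfrα-only and 0.718 and 0.354 in double-negative cells. *Sost*, known as a product of osteocytes, did not exceed 1.58 in any library, and *Sfrp5* lay between 1.04 and 5.79.

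The R-spondins promote Wnt signalling from outside the cell. All 4 had their highest mean in a Pdgfrα+ population. *Rspo3* stood at 34.1 and 26.6 in double-positive and 16.01 and 15.9 in Pdgfrα-only cells, and it read 5.22 and 0.386 in GFP-only and 1.01 and 1.53 in double-negative cells. *Rspo2* stood at 13.2 and 17.1 in Pdgfrα-only, 3.18 and 3.88 in double-positive, 0.121 and 0.9004 in GFP-only and 0.144 and 0.118 in double-negative cells. *Rspo1* was at 11.7 and 8.47 in Pdgfrα-only and 3.73 and 4.17 in double-positive cells, with at most 1.01 in the Pdgfrα- libraries. *Rspo4* was at 3.45 and 4.46 in double-positive cells and at most 1.93 elsewhere.

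Of the receptors for R-spondins, *Lgr4* was present in 3 of the populations, at 102 and 107 in double-positive, 64.2 and 55.98 in Pdgfrα-only and 62.5 and 73.96 in GFP-only cells, and low at 10.5 and 4.83 in double-negative cells. *Lgr5* (ENSMUSG00000020140, chromosome 10, 114887367 to 115024836, minus strand), known as a marker of stem cells in the intestine, was highest in Pdgfrα-only cells at 33.9 and 29.9, against 2.35 and 4.74 in double-positive, 4.49 and 2.44 in GFP-only and 1.01 and 1.06 in double-negative cells. Both Pdgfrα-only libraries lay above all 6 others, and the double-positive and GFP-only libraries overlapped. *Lgr6* was at 13.7 and 5.03 in double-positive, 5.67 and 6.09 in Pdgfrα-only, 5.46 and 5.53 in GFP-only and 2.44 and 1.06 in double-negative cells. The ligase *Znrf3* stayed between 30.9 and 57.2 in all libraries. Its relative *Rnf43* had 0 reads in the Pdgfrα-only and GFP-only libraries, and values of 0.967 and 2.73 in double-positive and 4.17 and 4.36 in double-negative cells.

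*Ctnnb1*, which encodes β-catenin, was present in every library, at 776 and 609 in double-positive, 385 and 360.4 in Pdgfrα-only, 417 and 411 in GFP-only and 228 and 206 in double-negative cells. *Tcf7* (ENSMUSG00000000782, chromosome 11, 52065873 to 52096681, minus strand), which encodes TCF1, a nuclear partner of β-catenin, stood at 89.9 and 51.03 in double-positive, 5.67 and 6.39 in Pdgfrα-only, 12.02 and 9.65 in GFP-only and 0.144 and 0.825 in double-negative cells. Both genes were highest in double-positive cells with no overlap, and for *Tcf7* the GFP-only libraries came next. The other TCF genes did not share that order. *Tcf7l1*, mostly a repressor, read 78.6 and 65.4 in double-positive, 83.6 and 74.1 in Pdgfrα-only, 65.2 and 52.6 in GFP-only and 2.15 and 3.89 in double-negative cells. *Tcf7l2* was at 152 and 163, 143 and 170.3, 87.04 and 101 and 12.2 and 14.5 in that order. For these 2 genes the Pdgfrα+ populations overlapped and double-negative cells were lowest. *Lef1* had 14.2 and 15.7 in double-positive, 8.95 and 13.8 in Pdgfrα-only, 4.01 and 4.25 in GFP-only and 5.31 and 3.18 in double-negative cells. *Axin2*, a feedback inhibitor and widely used target of β-catenin, was highest in Pdgfrα-only cells at 18.5 and 15.3, followed by 11.2 and 12.5 in double-positive, 5.71 and 4.76 in GFP-only and 1.01 and 1.06 in double-negative cells. *Axin1* lay between 23.2 and 35.2 in all libraries.

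**Figure D1:**
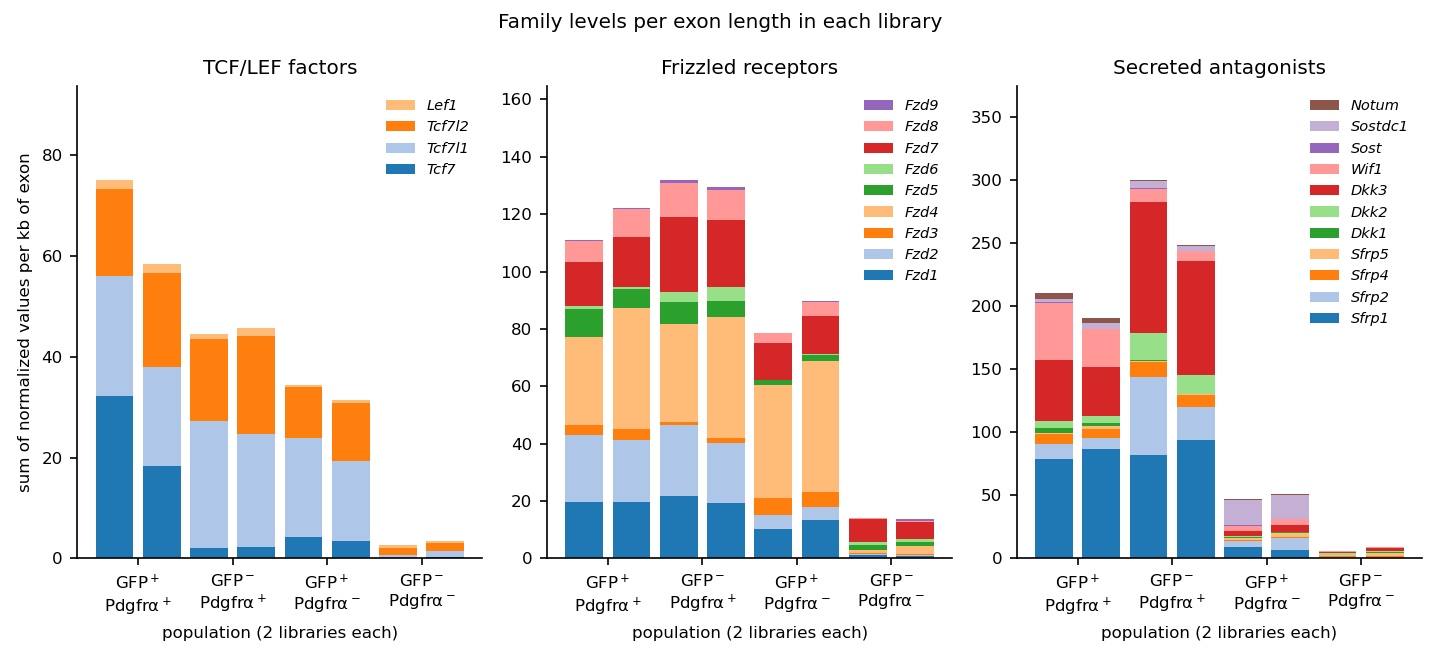
Stacked bars give, for each library, the normalized values per kilobase of exon summed over the TCF/LEF factors, the Frizzled receptors and the secreted antagonists, with 1 color per gene and 2 bars per population. *Tcf7* made up 43.0% and 31.3% of the TCF/LEF sum in the double-positive libraries and 4.57% and 5.01% in the Pdgfrα-only libraries.

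Put on a common scale of value per kilobase of exon, the make-up of some families differed between populations. The TCF/LEF sum was 74.9 and 58.4 in double-positive, 44.5 and 45.7 in Pdgfrα-only, 34.4 and 31.3 in GFP-only and 2.71 and 3.49 in double-negative libraries. *Tcf7* made up 43.03% and 31.3% of it in double-positive cells, 4.57% and 5.01% in Pdgfrα-only and 12.5% and 11.1% in GFP-only cells, and *Tcf7l1* was the largest contributor in the last 2. Of the Frizzled sum per kilobase, *Fzd4* held 49.7% and 51.04% in GFP-only cells, 27.5% and 34.6% in double-positive and 26.1% and 32.6% in Pdgfrα-only cells, whereas *Fzd7* held 56.2% and 42.9% in double-negative cells. The antagonist sum per kilobase was 299.7 and 248 in Pdgfrα-only, 211 and 190.3 in double-positive, 46.9 and 51.3 in GFP-only and 6.11 and 9.17 in double-negative libraries. *Sfrp1* and *Dkk3* were its main parts in Pdgfrα-only cells, with 27.3% and 38.0% and 34.7% and 36.3%. *Wif1* made up 21.6% and 15.8% of it in double-positive but 3.48% and 3.18% in Pdgfrα-only cells, and *Sostdc1* 42.2% and 36.8% in GFP-only cells. The ligand sum per kilobase was 47.9 and 39.8 in Pdgfrα-only and 30.7 and 33.3 in double-positive libraries, of which *Wnt5a* made up 34.6% and 34.3% and 37.2% and 33.4%. R-spondins summed to similar levels per kilobase in the same populations, 16.9 and 16.96 and 18.6 and 16.3, but *Rspo3* made up 39.6% and 39.1% of the sum in Pdgfrα-only and 76.7% and 68.1% in double-positive cells. These shares are descriptions and were not tested as such.

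The comparison of double-positive with Pdgfrα-only cells shows what goes with the nestin reporter among Pdgfrα+ cells. Double-positive cells had more RNA of the nuclear factor *Tcf7*, of β-catenin, of the antagonists *Wif1*, *Notum* and *Dkk1*, and of the receptor *Fzd3*. They had less of the R-spondin receptor *Lgr5*, of *Rspo2*, of the receptor *Fzd6* and of the antagonists *Dkk2*, *Dkk3* and *Sfrp2*. The antagonists were thus split, with 3 of 11 higher and 3 of 11 lower. None of the 9 ligands and none of the 5 genes for Lrp, Ror and Ryk receptors was called, where 5.35% of all genes were. Of the 9 ligands, 2 had a positive log2 fold change, and their median was -0.415. In all, 6 of the 50 genes (12.0%) were called higher and 6 (12.0%) lower, against 3.22% and 2.13% of all genes. The median log2 fold change of the 50 genes was -0.08, also with the 1 gene at its bound, and that of all genes was 0.005.

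*Tcf7* had the largest increase of the 50 genes, 12.1-fold (log2 fold change 3.29 ± 0.38, adjusted p 0.000410 in limma). *Lgr5* had the largest decrease, 9.44-fold lower (-2.90 ± 0.41, adjusted p 0.00171). Both calls held in all 16 alternatives, at adjusted p of 3.99e-05 to 0.0292 and 0.000435 to 0.0313. *Notum* was 11.5-fold higher (log2 fold change 2.41 ± 0.41, adjusted p 0.00484), *Dkk1* 11.2-fold (2.30, adjusted p 0.00519), *Wif1* 4.11-fold (1.98, adjusted p 0.00261), *Fzd3* 3.07-fold (1.46, adjusted p 0.0471) and *Ctnnb1* 1.86-fold (0.88, adjusted p 0.00264). The fold of *Dkk1* rests on 5 reads in Pdgfrα-only cells and that of *Notum* on 6, with 95% counting intervals of 4.497 to 35.7 and 5.03 to 32.6, and their log2 fold changes ranged from 2.02 to 3.44 and from 2.18 to 3.47 over the alternatives. In the other direction, *Fzd6* was 4.68-fold lower (log2 fold change -1.93 ± 0.43, adjusted p 0.0226), *Sfrp2* 4.52-fold (-1.96, adjusted p 0.0219), *Rspo2* 4.397-fold (-1.83, adjusted p 0.0214), *Dkk2* 3.37-fold (-1.65, adjusted p 0.0121) and *Dkk3* 2.24-fold (-1.16, adjusted p 0.0352). The log2 fold change of *Sfrp2* ranged from -2.59 to -1.33 over the alternatives, with Pdgfrα-only libraries at 135 and 55.4. None of the 12 genes overlapped between the 2 populations, but 30 of all 50 genes did not overlap either. The share over all genes was not counted, so the lack of overlap adds nothing to the calls.

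**Figure D2:**
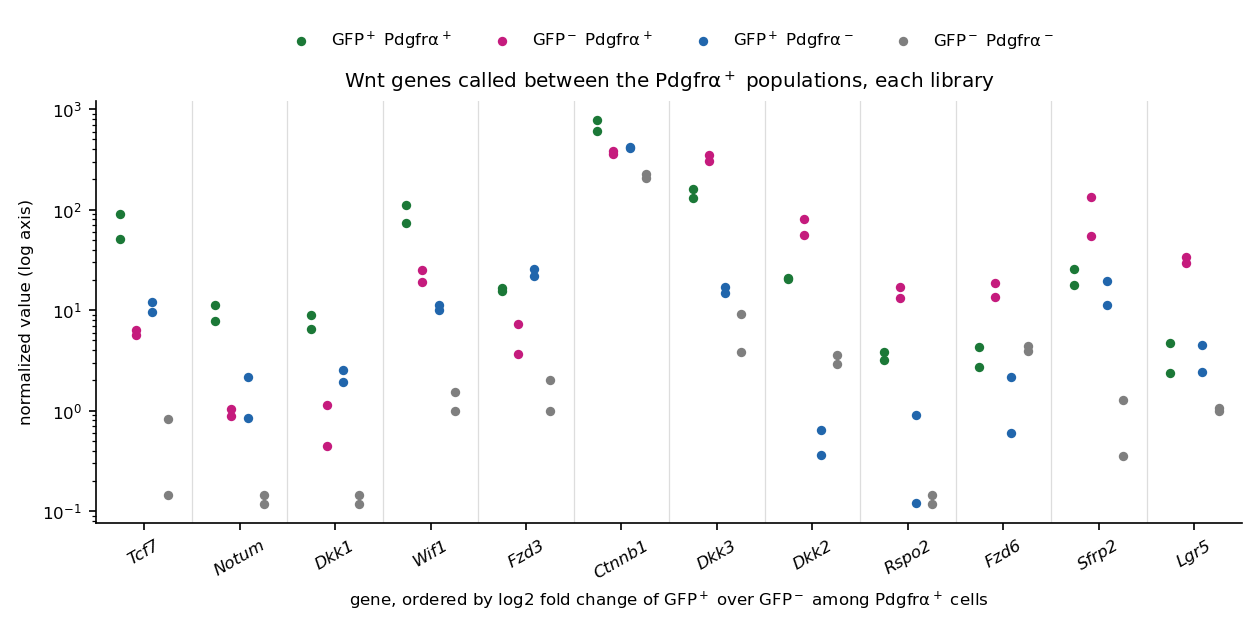
Points are the normalized values, on a log axis, of the 12 genes called between the Pdgfrα+ populations, in each of the 8 libraries, colored by population and ordered by log2 fold change. The double-positive points lie above the Pdgfrα-only points for the 6 genes on the left and below them for the 6 on the right.

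The 10 other calls depended on single libraries or settings, and a population left with a lone library was assumed to vary like the others. Without Pdgfrα-only library 1, the calls of *Fzd3*, *Fzd6*, *Sfrp2*, *Dkk2*, *Dkk3*, *Notum* and *Rspo2* ended at adjusted p of 0.0534 to 0.305. Without Pdgfrα-only library 2, the calls of *Fzd3*, *Fzd6*, *Dkk1*, *Dkk2*, *Dkk3*, *Wif1*, *Notum*, *Rspo2* and *Ctnnb1* ended at adjusted p of 0.0502 to 0.183. Without GFP-only library 1, the calls of *Fzd3* and *Dkk3* ended at adjusted p of 0.0809 to 0.1. Without GFP-only library 2, the calls of *Fzd3* and *Dkk3* ended at adjusted p of 0.0807 to 0.0997. Without double-positive library 1, the calls of *Fzd3*, *Fzd6*, *Sfrp2*, *Dkk2*, *Dkk3*, *Wif1* and *Rspo2* ended at adjusted p of 0.0508 to 0.15. Without double-positive library 2, the calls of *Fzd3*, *Fzd6*, *Sfrp2*, *Dkk2*, *Dkk3* and *Rspo2* ended at adjusted p of 0.0626 to 0.192. With edgeR on the recovered reads, the adjusted p of *Rspo2* was 0.0679. With no mean-variance trend, the calls of *Fzd3*, *Sfrp2*, *Dkk3* and *Ctnnb1* ended at adjusted p of 0.0662 to 0.143. In a fit without the 2 other populations, the adjusted p of *Fzd3* was 0.0892. With a pseudocount of 0, the calls of *Fzd3*, *Fzd6*, *Sfrp2*, *Dkk2*, *Dkk3*, *Notum* and *Rspo2* ended at adjusted p of 0.0548 to 0.322. Over all 16 alternatives the adjusted p of these 10 genes ranged from 0.000196 to 0.322, and no log2 fold change reversed its sign.

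Some genes of known function were not called between the Pdgfrα+ populations. *Axin2* had a log2 fold change of -0.48 ± 0.34, adjusted p 0.513, and *Lef1* 0.39 ± 0.36, adjusted p 0.632. The ligand *Wnt5a* had -0.42 ± 0.23, adjusted p 0.368, and the R-spondins *Rspo3* and *Rspo1* had 0.88 ± 0.56, adjusted p 0.457 and -1.15 ± 0.41, adjusted p 0.146. Nearer to a call in limma were the ligands *Wnt11* (-1.40 ± 0.39, adjusted p 0.0604) and *Wnt2* (-1.30 ± 0.40, adjusted p 0.0860). *Wnt2* had 3 and 0 reads in the double-positive libraries. *Lgr4* was not called either (0.79 ± 0.27, adjusted p 0.123). It was called in 5 of 16 alternatives, among them edgeR (adjusted p 0.0364) and a fit without the 2 other populations (0.0202), over a range of 0.0119 to 0.438.

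Markers of several cell types moved with these differences. All 9 of 9 osteoblast identifiers (8 genes, with 2 identifiers for *Runx2*) were called higher in double-positive than in Pdgfrα-only cells, and their summed values were 55010 and 40930 against 17050 and 15520, with 3385 and 2816 in GFP-only and 470 and 600.3 in double-negative cells. *Col1a1* made up most of the sum, and *Bglap* and one of the 2 *Runx2* identifiers were at most at 3 reads in double-negative cells. All 6 of 6 tendon and fibrous tissue genes were called lower, with sums of 655 and 665 against 3854 and 3906, most of it *Thbs4*, and 25.98 and 26.2 in GFP-only and 103 and 142 in double-negative cells. *Kera* in GFP-only and *Scx* in double-negative cells were at most at 3 reads. Of 6 chondrocyte genes, 1 (*Col11a2*) was called higher and 2 (*Acan* and *Col9a1*) lower. The chondrocyte sum was 622 and 616 in double-positive, 89.4 and 118 in GFP-only and 513 and 939 in double-negative cells. It differed within Pdgfrα-only cells, at 567 and 1951, led by *Col2a1* at 273 and 1498, and *Matn1* was at most at 3 reads in every population but the double-negative. Of the lists whose sums are given further on, Schwann lineage genes were 3 of 6 higher, skeletal muscle precursor genes 3 of 5 higher, pericyte and smooth muscle genes 2 of 6 higher, and leukocyte and myeloid genes 1 of 5 lower. The part of these cell types in the Wnt differences was not tested.

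Pdgfrα-only and double-negative cells, the populations without GFP, gave the most calls of Wnt genes. Pdgfrα-only cells had more RNA of most ligands, receptors and antagonists, including *Sfrp1*, *Sfrp2*, *Dkk3*, *Fzd2* and *Wnt5a*, and less of the ligase *Rnf43*. By role, 8 of 9 ligands, 8 of 9 Frizzled receptors, 5 of 5 Lrp, Ror and Ryk receptors, 7 of 11 antagonists, 6 of 9 R-spondin pathway genes and 6 of 7 β-catenin, Axin and TCF/LEF genes were called higher. Altogether 40 of the 50 genes (80.0%) were called higher and 1 (2.00%) lower, against 32.9% and 26.8% of all genes. The median log2 fold change was 2.27, or 2.62 with the 7 genes at their bounds, against 0.17 over all genes. The 9 genes not called were *Wnt16*, *Fzd9*, *Sfrp5*, *Dkk1*, *Sost*, *Notum*, *Rspo4*, *Znrf3* and *Axin1*.

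*Sfrp1* was 295-fold higher in Pdgfrα-only cells (log2 fold change 7.30 ± 0.17, adjusted p 4.00e-11 in limma). *Sfrp2* was 151-fold (5.63 ± 0.44, adjusted p 3.07e-07), *Fzd2* 108-fold (5.48 ± 0.23, adjusted p 1.49e-09) and *Dkk3* 49.6-fold (5.54 ± 0.28, adjusted p 8.04e-09). The fold of *Sfrp2* rests on 5 reads in double-negative cells, with a 95% counting interval of 64.6 to 468. Its log2 fold change ranged from 5.0 to 7.07 over the alternatives. *Fzd2* had 2 and 4 reads in the double-negative libraries, a 95% counting interval of 49.15 to 294.3 and a log2 range of 5.03 to 6.63. Of the ligands, *Wnt5a* was 45.97-fold (4.996 ± 0.23, adjusted p 3.02e-09) and *Wnt9a* 39.2-fold (4.35 ± 0.39, adjusted p 1.28e-06) higher. *Rspo2*, with 0 reads in double-negative cells, was at least 38.3-fold higher (3.83 ± 0.41, adjusted p 5.05e-06), and *Lgr5* was 35.2-fold higher (4.01 ± 0.41, adjusted p 3.69e-06). *Axin2* rose 18.7-fold (3.13 ± 0.34, adjusted p 6.43e-06), *Tcf7l1* 26.6-fold (4.34 ± 0.24, adjusted p 1.60e-08) and *Ctnnb1* 1.73-fold (0.78 ± 0.13, adjusted p 0.000299). *Rnf43*, with 0 reads in Pdgfrα-only cells, was at least 10.1-fold lower (-2.21 ± 0.40, adjusted p 0.000406).

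*Wnt2* did not pass the filter on low values and was tested in 15 alternatives. The calls of 35 of the 41 genes, *Wnt2* among them, held in every alternative in which they were tested. With median centring, which puts the median of every library at the same level, the calls of the 6 others, *Wnt4*, *Wnt5b*, *Fzd3*, *Ryk*, *Lgr6* and *Lef1*, ended at adjusted p of 0.0557 to 0.285, and each also ended without at least 1 library of these populations. Without double-negative library 2 the calls of *Wnt4*, *Wnt5b*, *Ryk*, *Lgr6* and *Lef1* ended at 0.0530 to 0.152, and without double-negative library 1 that of *Fzd3* at 0.0600. Without Pdgfrα-only library 1 those of *Wnt4*, *Wnt5b*, *Ryk* and *Lgr6* ended at 0.0761 to 0.147, and without Pdgfrα-only library 2 those of *Fzd3*, *Lgr6* and *Lef1* at 0.0946 to 0.0993. Their adjusted p ranged from 0.00252 to 0.285 over all alternatives. The same centring moved the median of all genes from 0.17 to -0.28 and the count of Wnt genes called from 40 higher and 1 lower to 34 higher and 2 lower, while the share of higher calls among all called genes went from 55.1% to 40.6%.

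Markers of blood and of stromal cells moved with this comparison. Osteoblast identifiers were 8 of 9 higher in Pdgfrα-only cells and tendon genes 6 of 6 higher, with the sums given above. Pericyte and smooth muscle genes were 3 higher and 2 lower of 6, chondrocyte genes 2 higher and 1 lower of 6, muscle fibre genes 3 higher and 1 lower of 5, endothelial genes 1 higher and 2 lower of 5, and muscle precursor genes 1 of 5 lower. All 5 of 5 erythroid genes were called lower in Pdgfrα-only than in double-negative cells, with sums of 26.6 and 20.3 against 5473 and 8879, most of it the globin *Hbb-b1*. They summed to 21.7 and 19.1 in double-positive and 67.9 and 41.3 in GFP-only cells, and *Epb4.2* was at most at 3 reads in Pdgfrα-only cells. Of 5 leukocyte and myeloid genes 3 were called lower, with sums of 20.6 and 11.7 in Pdgfrα-only, 52.7 and 48.7 in double-negative, 4.83 and 13.9 in double-positive and 20.03 and 23.02 in GFP-only cells, led by *Lyz2* in all but the double-positive, and *Mpo* was at most at 3 reads in double-positive and *Ptprc* in Pdgfrα-only cells. The mitochondrial ribosomal RNA *mt-Rnr2* took 27.2% and 29.1% of the reads of the double-negative libraries and 10.8% of each Pdgfrα-only library. Osteoclast genes summed to 51.3 and 55.98 and 98.4 and 110, with *Ctsk* higher and *Acp5* lower in Pdgfrα-only cells, and *Calcr* at most at 3 reads in double-negative cells. In double-positive and GFP-only cells the osteoclast sums were 43.2 and 55.1 and 91.2 and 84.0. The sums were made of different genes, mostly *Acp5* in double-negative, *Calcr* in GFP-only and *Ctsk* in both Pdgfrα+ populations, so they do not measure a single cell type. The part of these cells and of the mitochondrial reads in the Wnt differences was not tested.

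Double-positive and GFP-only cells, which share the nestin reporter, differed in the same families. Double-positive cells had more RNA of *Wnt5a*, of the antagonists *Dkk2*, *Sfrp1*, *Dkk3*, *Sfrp4* and *Wif1*, of all 4 R-spondins and of *Tcf7*. GFP-only cells had more of the antagonist *Sostdc1* and of the receptor *Ror1*. By role, 3 of 9 ligands, 4 of 9 Frizzled receptors, 2 of 5 Lrp, Ror and Ryk receptors, 7 of 11 antagonists, 5 of 9 R-spondin pathway genes and 5 of 7 β-catenin, Axin and TCF/LEF genes were called higher. This made 26 of the 50 genes (52.0%) higher and 2 (4.0%) lower, against 13.1% and 11.1% of all genes. The median log2 fold change was 0.96, the same with the 3 genes at their bounds, against -0.025 over all genes.

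*Sfrp1* was 10.5-fold higher in double-positive than in GFP-only cells (log2 fold change 3.36 ± 0.17, adjusted p 2.05e-07 in limma). *Dkk2* was 54.9-fold (95% counting interval 18.4 to 269) higher (3.86 ± 0.33, adjusted p 6.47e-06), *Dkk3* 9.29-fold (3.12 ± 0.28, adjusted p 1.04e-05), *Sfrp4* 10.9-fold (3.05 ± 0.32, adjusted p 3.09e-05) and *Wif1* 8.77-fold (2.97 ± 0.30, adjusted p 2.49e-05). *Wnt5a* was 7.57-fold higher (2.82 ± 0.23, adjusted p 4.46e-06), and the receptors *Fzd2* and *Fzd5* 4.73-fold (2.17 ± 0.23, adjusted p 3.39e-05) and 4.44-fold (2.02 ± 0.27, adjusted p 0.000212). *Rspo3* was 11.02-fold higher (3.41 ± 0.56, adjusted p 0.000948), and its log2 fold change ranged over the alternatives from 2.32 to 4.49, with GFP-only libraries at 5.22 and 0.386. *Rspo1*, with 0 reads in GFP-only cells, was at least 10.2-fold higher (2.14 ± 0.41, adjusted p 0.00262). *Tcf7* rose 6.58-fold (2.55 ± 0.38, adjusted p 0.0004698) and *Lef1* 3.70-fold (1.64 ± 0.36, adjusted p 0.00604). *Sostdc1* was 4.99-fold lower in double-positive cells (-2.17 ± 0.38, adjusted p 0.001303), a call that held in all 16 alternatives.

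Of the 28 calls, 16 held in every alternative. Without GFP-only library 1, the calls of *Wnt2b*, *Fzd1*, *Fzd8*, *Ror1*, *Ror2*, *Dkk1*, *Rspo2*, *Rnf43*, *Axin2* and *Tcf7l2* ended at adjusted p of 0.0515 to 0.250, and 18 of the 50 genes were called. Without GFP-only library 2, the calls of *Wnt2b*, *Wnt9a*, *Fzd8*, *Ror1*, *Dkk1*, *Rnf43* and *Axin2* ended at 0.0523 to 0.173. Without double-positive library 1 those of *Fzd1*, *Fzd8*, *Ror1*, *Dkk1* and *Axin2* ended at 0.0544 to 0.101, and without double-positive library 2 those of *Wnt2b*, *Fzd1*, *Fzd8*, *Ror1*, *Rspo2*, *Rnf43* and *Axin2* at 0.0574 to 0.205. Leaving out a Pdgfrα-only library ended the calls of *Fzd8*, *Rnf43* and *Axin2* with either library and of *Fzd1* with library 1, at 0.0503 to 0.0668. With no mean-variance trend *Lrp6* ended at 0.0546 and *Fzd1* at 0.0803, and with edgeR *Dkk1* ended at 0.0871. A pseudocount of 0 ended *Fzd8*, *Ror1*, *Dkk1* and *Axin2* at 0.0682 to 0.151, and a fit without the 2 other populations ended *Rnf43* and *Axin2* at 0.0683 to 0.0686. *Axin2* also ended with the replicate number as a block, at 0.0520. Over all alternatives the adjusted p of these 12 genes ranged from 0.000315 to 0.2495.

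Markers of other cell types in the GFP-only libraries moved with this comparison. All 6 of 6 Schwann lineage genes were called lower in double-positive cells, with sums of 95.3 and 61.5 in double-positive against 434 and 404 in GFP-only cells, where *Erbb3* led. All 5 of 5 skeletal muscle precursor genes were lower as well, at 24.4 and 30.9 against 699.9 and 722, led by *Pax7*. Of 6 pericyte and smooth muscle genes 4 were lower, with sums of 548 and 448 against 1718 and 2254. *Rgs5* led in GFP-only cells, and in double-positive cells *Cspg4* and *Pdgfrb* were above it. In Pdgfrα-only cells the sums of these 3 lists were 12.9 and 24.4, 2.899 and 2.53, and 440.2 and 454, and in double-negative cells 22.1 and 39.6, 7.32 and 3.42, and 67.5 and 112. At most at 3 reads were *Foxd3* in both of these populations, *Sox10*, *Pax7*, *Myf5* and *Myod1* in Pdgfrα-only cells, and *Cdh15* in both. Muscle fibre genes summed to 29.4 and 38.4 and 102 and 103, led by *Acta1*, with 3 of 5 lower, and to 27.4 and 24.5 in Pdgfrα-only and 25.1 and 22.1 in double-negative cells, where *Ckm* was at most at 3 reads. Endothelial genes summed to 47.6 and 69.4 and 45.3 and 92.2, with 0 of 5 called, and to 49.04 and 51.2 in Pdgfrα-only cells, with *Emcn* at most at 3 reads, and 30.6 and 113 in double-negative cells. Of the endothelial genes *Tek* had the highest values in GFP-only and Pdgfrα-only cells, and *Cdh5* was above *Tek* in double-negative cells. In limma, 9 of 9 osteoblast identifiers and 3 of 6 chondrocyte genes were higher in double-positive cells, and 5 of 6 tendon genes were higher with *Scx* lower. Erythroid genes were 1 of 5 lower (*Hbb-b1*), leukocyte and myeloid genes 1 of 5 lower (*Lyz2*), and osteoclast genes 1 higher (*Ctsk*) and 1 lower (*Calcr*) of 3. The share of *mt-Rnr2* was 9.52% and 10.3% of the reads in double-positive libraries, against 17.6% and 15.6% in GFP-only libraries. The part of these cell types and reads in the Wnt differences was not tested.

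GFP-only and double-negative cells lack Pdgfrα and differ in the nestin reporter. GFP-only cells had more RNA of *Ror1*, *Sostdc1*, *Fzd4*, *Tcf7l1*, *Sfrp1* and *Lgr4*, and less of *Fzd6*, *Dkk2* and *Rnf43*. By role, 3 of 9 ligands, 6 of 9 Frizzled receptors, 5 of 5 Lrp, Ror and Ryk receptors, 8 of 11 antagonists, 3 of 9 R-spondin pathway genes and 5 of 7 β-catenin, Axin and TCF/LEF genes were called higher. In total 30 of the 50 genes (60.0%) were called higher and 3 (6.00%) lower, against 30.1% and 23.6% of all genes. The median log2 fold change was 1.096, or 1.28 with the 6 genes at their bounds, against 0.15 over all genes.

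*Ror1* was 45.3-fold higher in GFP-only cells (log2 fold change 4.67 ± 0.24, adjusted p 1.69e-08 in limma), and *Sostdc1*, with 3 or fewer reads in double-negative cells, 86.8-fold (95% counting interval 29.4 to 424) (4.51 ± 0.38, adjusted p 8.57e-07). *Fzd4* was 21.1-fold higher (4.39 ± 0.32, adjusted p 2.57e-07), *Fzd3* 16.6-fold (3.33 ± 0.38, adjusted p 1.27e-05) and *Fzd2* 22.02-fold (3.27 ± 0.23, adjusted p 1.92e-07). The fold of *Fzd2* had a 95% counting interval of 9.863 to 61.06. Over the alternatives the log2 fold change ranged from 3.77 to 5.01 for *Fzd4*, with double-negative libraries at 3.88 and 10.5, and from 4.06 to 6.26 for *Sostdc1*. *Sfrp1* was 26.6-fold higher (3.86 ± 0.17, adjusted p 4.94e-09). *Lgr4* was 9.37-fold higher (3.08 ± 0.27, adjusted p 1.31e-06), *Tcf7l1* 19.8-fold (3.92 ± 0.24, adjusted p 6.41e-08) and *Tcf7* 27.7-fold (95% counting interval 9.15 to 137) (3.03 ± 0.38, adjusted p 2.90e-05, log2 range over the alternatives 2.57 to 4.97). *Dkk2* was lower, with a read ratio of 0.121-fold (95% counting interval 0.0232 to 0.397) and a log2 fold change of -1.51 ± 0.33, adjusted p 0.00194. *Rnf43*, with 0 reads in GFP-only cells, was at least 11.1-fold lower (-2.23 ± 0.40, adjusted p 0.000461).

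Of the 33 calls, 24 held in every alternative. Without double-negative library 2 the calls of *Fzd6*, *Ryk*, *Sost*, *Notum*, *Lgr5* and *Lgr6* ended at adjusted p of 0.0839 to 0.267, and without double-negative library 1 those of *Wnt2b*, *Fzd6*, *Sost*, *Notum* and *Lgr5* at 0.109 to 0.146. Without GFP-only library 1 those of *Wnt2b*, *Fzd6*, *Ryk*, *Sost*, *Lgr5* and *Lgr6* ended at 0.0752 to 0.264, and without GFP-only library 2 those of *Wnt2b*, *Ror2*, *Ryk*, *Sost*, *Notum* and *Lgr6* at 0.0644 to 0.238. Leaving out a Pdgfrα-only library ended those of *Lgr5* and *Lgr6* at 0.0520 to 0.0587, and leaving out a double-positive library that of *Ryk* at 0.0523 and 0.0527. With median centring *Fzd7* ended at 0.0553, and *Wnt2b*, *Ryk*, *Sost*, *Notum*, *Lgr5* and *Lgr6* ended at up to 0.727. With edgeR *Ryk* and *Sost* ended at 0.0580 to 0.0590, with voom *Wnt2b*, *Ryk*, *Lgr5* and *Lgr6* at 0.0537 to 0.0848, and with no mean-variance trend *Ryk* at 0.107. A fit without the 2 other populations ended *Wnt2b*, *Fzd6* and *Ryk* at 0.0568 to 0.0621. Their adjusted p ranged from 0.000318 to 0.727 over all alternatives. Centring moved the median of all genes from 0.15 to -0.30, the Wnt genes called from 30 higher and 3 lower to 23 higher and 5 lower, and the share of higher calls among all called genes from 56.1% to 38.9%.

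The erythroid genes, 5 of 5 lower in GFP-only cells with the sums given above, and the Schwann lineage, 6 of 6 higher, moved with this comparison, as did 5 of 5 skeletal muscle precursor and 6 of 6 pericyte and smooth muscle genes. Osteoblast identifiers were 7 of 9 higher, tendon genes 1 higher and 4 lower of 6, chondrocyte genes 1 higher and 4 lower of 6, muscle fibre genes 4 of 5 higher, and leukocyte and myeloid genes 2 of 5 lower. Osteoclast genes were 2 higher and 1 lower of 3, and endothelial genes 1 of 5 higher. The share of *mt-Rnr2* was 17.6% and 15.6% of the reads in GFP-only libraries, against the 27.2% and 29.1% of the double-negative. The part of these cells and reads in the Wnt differences was not tested.

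**Figure D3:**
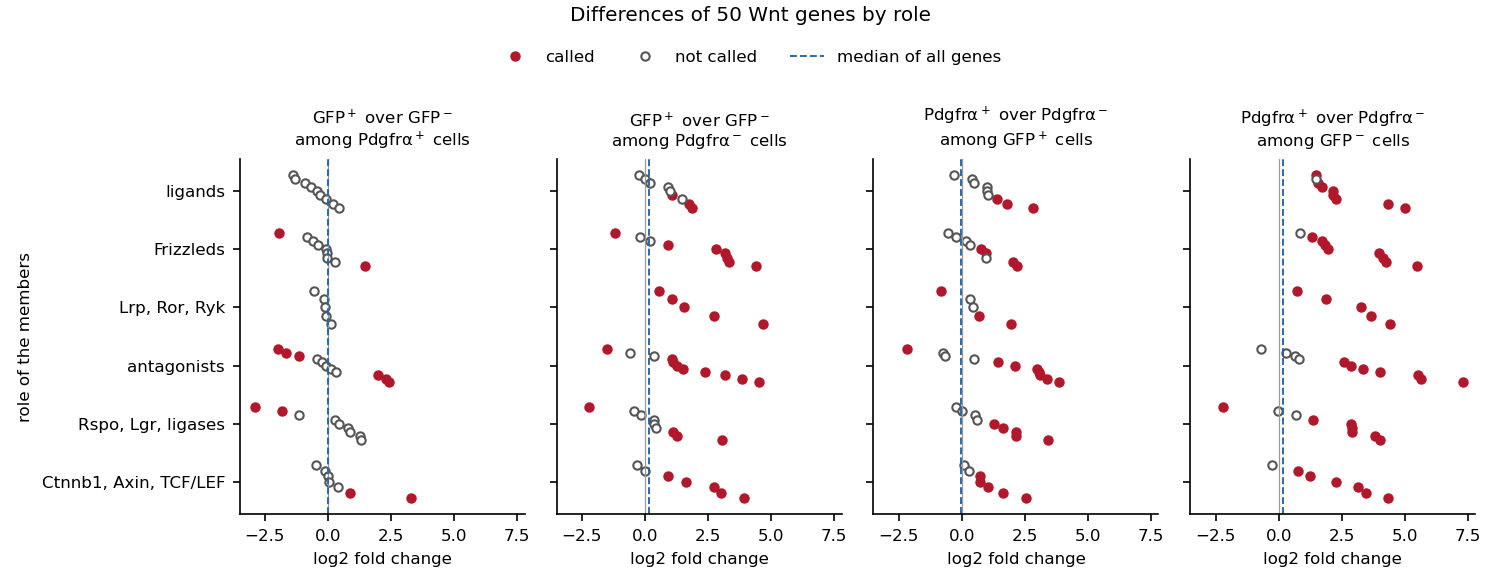
Each point is the log2 fold change of 1 of the 50 Wnt genes, grouped by role, in the 4 comparisons of populations. Filled points passed limma's test at an adjusted p of at most 0.05, and the dashed line is the median of all genes: 12, 33, 28 and 41 points are filled from left to right.

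Whether the GFP difference itself depended on Pdgfrα was tested by the interaction of GFP with Pdgfrα. It was called for 23 of the 50 genes (46.0%), 1 positive and 22 negative, against 44.3% of all genes, so the share was near the background. The median interaction of the 50 genes was -1.13, against -0.16 over all genes. With median centring the all-gene median became 0.27, the split among all called genes moved from 43.1% to 59.7% positive, and that of the 50 genes from 1 positive and 22 negative to 3 positive and 21 negative. Cell type markers moved with the interaction: erythroid genes were 5 of 5 positive, pericyte and smooth muscle genes 6 of 6 negative, skeletal muscle precursor genes 5 of 5 negative, Schwann lineage genes 5 of 6 negative and tendon genes 3 of 6 negative. Osteoblast identifiers were 5 positive and 1 negative of 9, and chondrocyte genes 3 positive and 1 negative of 6. Muscle fibre genes were 2 of 5 negative, endothelial genes 1 of 5 negative, leukocyte and myeloid genes 1 of 5 positive, and osteoclast genes 1 positive and 2 negative of 3. The part of these cells in the interactions of Wnt genes was not tested.

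Other genes of the pathway, taken from lists of 80 symbols of which 72 are in the table, were counted in the same way. Between the Pdgfrα+ populations, where 5.35% of all genes were called, the calls were 0 of 2 secretion genes, 0 of 19 genes of cytoplasmic transduction, 0 of 11 nuclear partners of β-catenin, 1 of 12 planar cell polarity genes (*Celsr1*, higher), 2 of 14 extracellular modulators (*Lrp4* and *Apcdd1*, higher) and 4 of 18 further target genes (*Myc*, *Tnfrsf19* and *Apcdd1* higher, *Fgf18* lower). *Tnfrsf19*, a receptor gene known as a β-catenin target, was at 128 and 80.1 in double-positive and 25.8 and 14.4 in Pdgfrα-only cells (2.33 ± 0.31, adjusted p 0.00111). *Apcdd1*, a membrane-bound Wnt inhibitor, stood at 25.0 and 22.6 against 8.45 and 6.68 (1.54 ± 0.38, adjusted p 0.0366). *Lrp4*, a receptor that binds sclerostin, was at 256 and 189.6 against 92.4 and 103 (1.166 ± 0.21, adjusted p 0.00656). *Fgf18*, a growth factor of the skeleton, went the other way, at 31.9 and 32.1 against 66.4 and 87.8 (-1.23 ± 0.32, adjusted p 0.0471). These 4 genes had no overlap between the Pdgfrα+ populations, and the share of such genes among all genes was not counted.

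In Pdgfrα-only over double-negative cells, 32.9% of all genes were called higher and 26.8% lower. Secretion genes were 2 of 2 higher, modulators 9 higher and 0 lower of 14, cytoplasmic genes 12 higher and 4 lower of 19, nuclear partners 7 higher and 1 lower of 11, planar cell polarity genes 8 higher and 3 lower of 12 and targets 16 higher and 1 lower of 18. *Wls*, which carries Wnt proteins to the cell surface, was at 74.3 and 51.5 in Pdgfrα-only and 2.44 and 1.06 in double-negative cells (4.56 ± 0.29, adjusted p 6.12e-08), and the secreted inhibitor *Igfbp4* at 244 and 235 against 3.88 and 9.79 (5.05 ± 0.29, adjusted p 2.09e-08). The β-catenin cofactor *Bcl9l* stood at 152 and 142 against 4.45 and 6.25 (4.56 ± 0.19, adjusted p 1.63e-09). The kinase gene *Gsk3b*, part of the destruction complex, differed little, at 266 and 255 against 197 and 192 (0.42 ± 0.11, adjusted p 0.00726). *Myc* was lower in Pdgfrα-only cells, at 43.7 and 34.01 against 135 and 155 (-1.88 ± 0.18, adjusted p 1.70e-06), the only one of the 18 targets that was.

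Within the GFP+ cells, double-positive over GFP-only, 13.1% of all genes were called higher and 11.1% lower, and the counts were 1 of 2 secretion genes higher, modulators 8 higher and 2 lower of 14, cytoplasmic genes 4 higher and 1 lower of 19, nuclear partners 1 higher and 0 lower of 11, planar cell polarity genes 3 higher and 0 lower of 12 and targets 7 higher and 0 lower of 18. The modulator *Cthrc1*, a secreted collagen-related protein, was at 160.3 and 168 in double-positive and 9.35 and 8.104 in GFP-only cells (4.09 ± 0.22, adjusted p 3.30e-07), and *Fgf18* at 31.9 and 32.1 against 1.82 and 0.9004 (3.83 ± 0.32, adjusted p 5.58e-06). *Kremen1*, a receptor for Dickkopf proteins, was lower in double-positive cells, at 52.9 and 56.5 against 104 and 117 (-1.003 ± 0.21, adjusted p 0.00424). Among Pdgfrα- cells, GFP-only over double-negative, 30.1% of all genes were called higher and 23.6% lower. There, 2 of 2 secretion genes were higher, modulators were 10 higher and 2 lower of 14, cytoplasmic genes 11 higher and 2 lower of 19, nuclear partners 7 higher and 0 lower of 11, planar cell polarity genes 8 higher and 2 lower of 12 and targets 11 higher and 1 lower of 18. *Bmp4*, a secreted growth factor, was at 82.9 and 75.3 against 0.718 and 3.18 (4.90 ± 0.33, adjusted p 1.27e-07), and the polarity gene *Vangl2* at 23.4 and 29.2 against 1.01 and 0.118 (4.18 ± 0.34, adjusted p 6.80e-07).

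Promoter windows are shown for *Dkk1*, *Wif1* and *Tcf7*, genes with large differences between the Pdgfrα+ populations that were all higher in double-positive cells, to let their sequences be compared. RefSeq windows on build GRCm38.p6, from 250 bases before to 50 after a transcription start, were matched by symbol for 33 of the 50 genes (43 windows). They were searched on both strands for the 7-letter core bound by TCF/LEF factors, CTTTGAA or CTTTGTT or a mix of both endings (the last 2 letters each A or T), and matches are in capitals. The core occurred in 16.9% of all 32851 windows, with 2 or more matches in 1.94%, and in 6 of the 43 Wnt windows (14.0%). *Dkk1* (chr19:30549447-30549746, minus strand) has 2 matches, starting 117 and 98 bases before the transcription start. *Wif1* (chr10:121033754-121034053, plus strand) and the *Tcf7* window shown (chr11:52282546-52282845, minus strand) have none, and neither has the other *Tcf7* window. A match is a description of letters and not a binding site.
Dkk1: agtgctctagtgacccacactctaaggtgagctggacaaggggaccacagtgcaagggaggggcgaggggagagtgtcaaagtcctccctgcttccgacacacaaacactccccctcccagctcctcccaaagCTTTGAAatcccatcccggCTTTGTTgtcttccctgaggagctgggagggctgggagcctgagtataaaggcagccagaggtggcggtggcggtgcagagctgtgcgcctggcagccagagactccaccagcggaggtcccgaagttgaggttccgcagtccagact
Wif1: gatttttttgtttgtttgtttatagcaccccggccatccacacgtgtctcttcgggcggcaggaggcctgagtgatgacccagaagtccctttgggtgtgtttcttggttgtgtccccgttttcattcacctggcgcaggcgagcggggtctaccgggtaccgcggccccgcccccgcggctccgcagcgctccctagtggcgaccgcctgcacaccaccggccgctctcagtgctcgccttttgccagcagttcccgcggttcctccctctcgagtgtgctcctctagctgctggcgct
Tcf7: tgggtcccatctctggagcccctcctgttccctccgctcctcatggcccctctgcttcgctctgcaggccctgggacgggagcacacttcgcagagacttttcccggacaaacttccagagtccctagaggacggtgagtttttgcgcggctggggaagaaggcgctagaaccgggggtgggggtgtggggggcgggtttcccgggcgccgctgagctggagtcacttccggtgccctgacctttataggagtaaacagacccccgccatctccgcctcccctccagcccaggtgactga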

How the data were processed

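RNA of 8 libraries, 2 for each of 4 sorted populations, was sequenced. Per the submitters' notes and methods, the authors trimmed reads with cutadapt, quantified them with RSEM 1.17 on the Ensembl 65 transcriptome of mouse build NCBIM37, removed genes by a counts-per-million filter and used voom of limma for normalization. For 15880 Ensembl genes, the deposited table holds the authors' normalized signal, back on a linear scale. Dividing each value by the step of 1 read gave whole reads, within 0.01, for 100% of values. Strand was not stated for the library preparation, so reads of a gene and of a gene on the opposite strand cannot be told apart: exons of *Axin2*, *Ctnnb1*, *Notum*, *Sfrp2*, *Tcf7l1*, *Wnt11* and *Wnt5a* overlap such genes.

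Symbols, positions and exon lengths came from the GENCODE M1 annotation of NCBIM37, which matched 15849 of the 15880 identifiers. The scale was log2(value + 1), and the model was limma 3.58.1 under R 4.3.3 (1 coefficient per population, eBayes with trend, 4 residual degrees of freedom). The p-values were adjusted over all genes by the Benjamini-Hochberg method and called at 0.05. Tables and figures used Python 3.11.15, pandas 2.3.3, numpy 2.4.6 and matplotlib 3.10.9. Within populations, differences exceeded counting noise, with a chi-square per degree of freedom of 4.12 to 9.12, and the common biological coefficient of variation was 0.188.

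The Wnt genes and the lists of pathway genes and cell type markers were chosen with earlier results of these data known. Values by library are given for 40 of the 50 genes. These were called in at least 1 comparison of 2 populations and had a mean of at least 5 in their highest population. For *Wnt11* and *Rspo1* among them, the Pdgfrα- libraries are given only by an upper limit. Values are also given for some other genes by choice after they were seen. Of the 50 genes, 45 were called in at least 1 of these comparisons. In each list, genes were named among the 4 of highest mean or those called with a log2 fold change of at least 2 in size, with *Lrp4*, *Celsr1*, *Apcdd1* and *Kremen1* added as called genes.

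The alternatives were the replicate number as a block, a fit without the 2 populations not compared, a pseudocount of 0, no mean-variance trend, median centring of each library, a filter on values over 2 in at least 2 libraries, edgeR 4.0.16 (quasi-likelihood) and voom on the recovered reads, and leaving out each library. Replicate numbers were taken to mark shared sets of pooled littermates, and after removing population means, libraries with the same number correlated at 0.004 to 0.081 over all genes. The scripts were tested on simulated reads with a common spread and set changes in double-positive cells. Against Pdgfrα-only cells, limma called 25 of 79 genes changed 2-fold and 103 of 121 changed 4-fold, with 6 false calls. A gene that was not called may thus still differ.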

Additional observations from a re-analysis of the deposited data

Results flagged for a closer look

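For 23 of the 50 Wnt genes the GFP difference among Pdgfrα+ cells differed from that among Pdgfrα- cells, as tested by the interaction in limma. The share, 46.0%, was close to the 44.3% of all genes, and markers of several cell types moved with the interaction too. The values are log2 differences between the 2 GFP differences, and negative values mean that the GFP difference was lower among Pdgfrα+ cells. Of the ligands, *Wnt5a* was at -2.18 and *Wnt9a* at -2.54. Frizzled receptors were at -3.22 (*Fzd1*), -3.31 (*Fzd2*), -1.87 (*Fzd3*), -4.47 (*Fzd4*), -1.49 (*Fzd7*) and -3.20 (*Fzd8*). The other receptors were *Lrp5* at -2.82, *Lrp6* at -1.22, *Ror1* at -5.24 and *Ror2* at -1.70. Antagonists were *Sfrp1* at -3.94, *Sfrp2* at -5.14, *Dkk3* at -2.42 and *Sostdc1* at -4.76. In the R-spondin pathway, *Rspo2* was at -2.20, *Lgr4* at -2.28 and *Lgr5* at -4.00. *Axin2* was at -2.09, *Tcf7l1* at -4.06 and *Tcf7l2* at -2.71. *Rnf43* was the single positive value, 3.48, from 0 reads in the GFP-only and Pdgfrα-only libraries.

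Among these values, the largest in size was that of *Ror1*, adjusted p 2.73e-07 in limma. This rank depends on the scale and settings: over the alternatives the extremes were 12.7 for *Rnf43*, -6.55 for *Sfrp2*, -6.53 for *Sostdc1* and -6.05 for *Ror1*. The GFP-only libraries of *Ror1* stood at 56.2 and 61.6 against 1.01 and 1.77 in double-negative cells. Its Pdgfrα+ populations were 32.5 and 32.3 with GFP and 44.8 and 52.7 without. *Lgr5* had adjusted p 0.000151, and its 2 GFP differences had opposite signs, -2.90 among Pdgfrα+ and 1.097 among Pdgfrα- cells. *Sfrp2* had adjusted p 3.49e-05 and likewise opposite signs, -1.96 and 3.18. Its call among Pdgfrα+ cells ended in 5 of 16 alternatives. The call of *Lgr5* among Pdgfrα- cells ended in 7 of 16 alternatives, at adjusted p of up to 0.242. Of the 23 interactions 20 held in all 15 alternatives. *Ror2* ended in 7, at adjusted p of 0.0569 to 0.110, 6 of them without 1 library each: double-positive library 1 (0.0671) or 2 (0.0630), Pdgfrα-only library 1 (0.0569) or 2 (0.0996), GFP-only library 2 (0.110) and double-negative library 1 (0.0830). *Fzd3* ended without GFP-only library 1 (0.0609) and Pdgfrα-only library 2 (0.0649). *Rspo2* ended with a pseudocount of 0 (0.0672) and with voom (0.0715). Over all alternatives the adjusted p of these 3 genes ranged from 0.004602 to 0.1101.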

How the results depend on the processing

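Of 137 calls of Wnt genes over the 4 comparisons of populations and the interaction, 97 held in every alternative in which they were tested. The filter on low values left out *Wnt2*, so its call between Pdgfrα-only and double-negative cells rests on 15 alternatives. No alternative reversed a sign. In 168 results of an alternative a call was lost. Between the Pdgfrα+ populations the count of Wnt genes called went from 12 to 5 with a pseudocount of 0, and to between 3 and 14 when 1 library was left out. Between double-positive and GFP-only cells it went from 28 to between 18 and 29 with 1 library left out. In the other comparisons the total of Wnt genes called, both directions together, stayed within 1.5 times. Over all genes, 849 were called between the Pdgfrα+ populations, against 514 with a pseudocount of 0, 532 with no mean-variance trend and 246 to 1083 with 1 library left out. Between double-positive and GFP-only cells 3848 were called, against 2158 and 2411 without GFP-only library 1 or 2. The cause was not tested. The replicate number as a block ended only the call of *Axin2* between double-positive and GFP-only cells (adjusted p 0.0520) and changed no other call to not called.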
